A study of Mus musculus with 6 samples.

Results

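The genes described are Trp53, which encodes the tumour suppressor p53, and 9 genes that p53 activates or that, like p53 targets, restrain the cell cycle or promote cell death: Mdm2, Cdkn1a, Cdkn1b, Bbc3, Bax, Pmaip1, Plk2, Gadd45a and Ccng1. They were taken by symbol from a list of 10, and all 10 were found among the 22007 gene symbols in each of 6 count tables. The tissue was the cornea of male C57BL/6J mice. The OFBI group (open-field blast injury) had been exposed awake to 1 blast from 350 g of C-4 explosive at a distance of 3 m, and corneas were taken 12 months later. The Naive group carries the same 12-month label, and no transgene, deletion or drug is named for either group. Each group had 3 libraries, each from pooled corneas that the series calls a biological replicate, so values of single animals are not resolved. The sources used here do not give the number of corneas in a pool or the age of the mice.

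The protein p53 is a transcription factor that cells hold at a low level until DNA damage or another stress stabilises it. Mdm2, a ubiquitin ligase and itself a p53 target, returns p53 to that low level, so the pair forms a feedback loop that acts mostly on protein and not on Trp53 RNA. Targets of p53 include Cdkn1a (the p21 inhibitor of cyclin-dependent kinases, CDKs), the death genes Bbc3 (PUMA), Pmaip1 (NOXA) and Bax, and the stress genes Plk2, Gadd45a and Ccng1. Cdkn1b encodes p27, a CDK inhibitor related to p21 that is controlled largely at the protein level and is not a classical p53 target. In the cornea, whose epithelium is renewed from the limbus throughout life, CDK inhibitors act in cells that leave the cycle as they differentiate.

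Depth differed between the groups and bears on every value here. Naive libraries held 41971752 to 47809779 estimated counts and OFBI libraries 1173472 to 3410476, a ratio of 16.7 between the group means, and OFBI replicate 3 was the shallowest. Levels are given as CPM, the usual depth-scaled count, with library sizes adjusted by the trimmed mean of M values (TMM). Log2 fold changes are OFBI over Naive from edgeR's quasi-likelihood test, with Benjamini-Hochberg adjustment over all 13941 genes tested and a threshold of 0.05. Transcript base composition moved with group: over the 10531 genes that averaged 5 CPM or more, the median log2 fold change was -0.45 in the tenth with the lowest GC content and 0.56 in the tenth with the highest. The epithelial markers Krt12, Krt5, Krt14, Pax6, Aldh3a1 and Tkt were above 0 in all 6 libraries, and their summed level was 28099 to 29125 CPM in Naive and 56979 to 75418 CPM in OFBI libraries, with 3 of 6 called higher. Of the endothelial markers, 2 of 4 were called lower (sums of 1064 to 1075 CPM in Naive and 1029 to 1078 CPM in OFBI libraries). The keratocyte marker Kera was at 0 in OFBI replicates 1 and 3, and 1 of 5 keratocyte markers was called lower (334 to 371 and 154 to 311 CPM). Markers of other tissues were higher in OFBI libraries: 5 of 6 tested hepatocyte markers, 3 of 5 tested lymphocyte markers and 3 of 5 heart muscle markers were called higher. Their summed levels in OFBI replicates 1, 2 and 3 were 137, 177 and 934 CPM for hepatocytes, 48.2, 27.9 and 145 CPM for lymphocytes and 148, 12.5 and 184 CPM for heart muscle, against at most 41.3, 6.48 and 15.6 CPM in a Naive library. The heart muscle sum of OFBI replicate 2 lay in the Naive range, with Myl2 and Actc1 at 0, and Apoa2 was at 0 in OFBI replicates 1 and 2, Fgb and Cd79b in OFBI replicate 2 and Cd79a in all OFBI libraries. Of macrophage markers 1 of 4 was called higher (24.7 to 32.3 CPM in Naive, 24.4 to 38.7 CPM in OFBI libraries), and of Schwann cell and red cell markers 1 of 3 and 1 of 4 were called lower (288 to 335 against 104 to 214 CPM, and 57.1 to 70.3 against 13.1 to 26.3 CPM). The part these differences have in the results below was not tested, except where a value is given.

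The sequences bound by p53 are pairs of 10-base elements, each with 3 purines, C, 2 bases that are A or T, G and 3 pyrimidines, a pattern that reads the same on both strands. RefSeq promoter windows (GRCm38.p6, 250 bases before to 50 bases after a transcript start) were available for 9 of the 10 genes, in 12 windows. Of these genes 6 held at least 1 exact element, and of all 32851 windows 8.36% did. The first is a count of genes, some with more than 1 window, and the second a share of single windows. Most of the genes were listed as p53 targets, so their elements are no result of these data. The elements are shown with 10 bases on each side, 5′ to 3′ along the transcribed strand, because p53 binds elements of this kind near genes it activates. Capitals mark the exact element.
Trp53, chr11:69580274-69580303 (+ strand): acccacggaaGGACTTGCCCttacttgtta
Mdm2, chr10:117710925-117710954 (- strand): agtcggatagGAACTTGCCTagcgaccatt
Cdkn1a, chr17:29090896-29090925 (+ strand): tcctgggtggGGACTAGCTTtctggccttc
Cdkn1a, chr17:29090918-29090947 (+ strand): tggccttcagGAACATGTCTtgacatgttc
Bax, chr7:45467080-45467109 (- strand): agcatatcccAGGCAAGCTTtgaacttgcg
Gadd45a, chr6:67037428-67037457 (- strand): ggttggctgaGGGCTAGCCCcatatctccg
Ccng1, chr11:40755452-40755481 (- strand): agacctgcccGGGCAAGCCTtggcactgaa

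The other genes with a window, Bbc3, Cdkn1b and Plk2, held no exact element in any window. They are also the genes with counts in both groups that were called in the comparison described next, so the first window of each is shown whole, beside the first of Cdkn1a. Bbc3 has 3 windows, with 3, 3 and 6 mismatches in the closest pair, and Cdkn1a has 2, with 0 and 5, and the others are not shown. Capitals mark the closest pair of elements with a spacer of at most 13 bases, whether or not p53 binds there.
Cdkn1a, chr17:29090729-29091028 (+ strand): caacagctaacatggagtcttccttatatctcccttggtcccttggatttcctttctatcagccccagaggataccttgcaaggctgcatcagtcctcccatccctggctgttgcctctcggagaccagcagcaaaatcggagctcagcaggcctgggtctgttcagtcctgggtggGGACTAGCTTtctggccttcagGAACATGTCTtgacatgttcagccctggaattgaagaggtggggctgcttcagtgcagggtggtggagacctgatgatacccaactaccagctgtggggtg
Bbc3, chr7:16309333-16309632 (+ strand): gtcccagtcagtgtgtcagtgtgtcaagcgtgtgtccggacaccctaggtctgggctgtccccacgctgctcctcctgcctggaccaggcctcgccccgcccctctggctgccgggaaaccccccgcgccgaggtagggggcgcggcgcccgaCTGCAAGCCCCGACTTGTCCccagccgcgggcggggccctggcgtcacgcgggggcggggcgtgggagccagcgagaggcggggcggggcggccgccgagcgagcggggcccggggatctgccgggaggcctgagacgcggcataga
Cdkn1b, chr6:134920151-134920450 (+ strand): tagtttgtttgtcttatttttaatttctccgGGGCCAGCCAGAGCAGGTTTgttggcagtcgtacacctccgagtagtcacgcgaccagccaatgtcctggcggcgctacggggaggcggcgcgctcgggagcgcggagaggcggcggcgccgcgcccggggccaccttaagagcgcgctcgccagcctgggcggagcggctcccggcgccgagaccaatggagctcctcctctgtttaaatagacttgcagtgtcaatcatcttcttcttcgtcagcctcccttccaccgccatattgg
Plk2, chr13:110394794-110395093 (+ strand): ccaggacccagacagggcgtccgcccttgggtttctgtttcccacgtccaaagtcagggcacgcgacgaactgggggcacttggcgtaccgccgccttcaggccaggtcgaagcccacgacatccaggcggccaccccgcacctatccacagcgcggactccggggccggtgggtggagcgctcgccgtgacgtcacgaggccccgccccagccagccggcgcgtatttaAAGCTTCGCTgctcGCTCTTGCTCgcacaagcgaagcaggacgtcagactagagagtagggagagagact
The pair in the Cdkn1a window shown had 0 mismatches over 20 bases, as in 24 of all windows (0.073%). Its elements are 12 bases apart. Only the pair with the fewest mismatches is marked. In the same window GAACATGTCT is directly followed by tgacatgttc, which departs from the pattern in its first base. That more closely spaced pair is therefore not marked. The closest pairs had 3 mismatches in the Bbc3 and Cdkn1b windows shown and 4 in the Plk2 window, and 45.1% and 89.3% of all windows held a pair at least as close. Ccng1 and Bax had a pair with 1 mismatch, as did 1.09% of all windows when exact pairs are included. A match or a count of mismatches describes letters in a short window only and does not tell whether p53 binds there. The p53-responsive promoter of Mdm2, for one, lies in an intron and outside the window used.

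After OFBI, Bbc3 and Cdkn1b were called higher and Plk2 lower than in Naive corneas, while Trp53, Mdm2, Cdkn1a and Ccng1 did not pass the test. The call of Bbc3 was lost with a trend in GC content and length removed (log2 fold change 1.15, edgeR adjusted p = 0.164). Over the alternative fits that tested each gene, the call was lost in 5 of 17 for Bbc3, 10 of 18 for Cdkn1b and 4 of 18 for Plk2. All 10 genes passed the filter on low counts, Pmaip1 through its Naive counts alone, since its OFBI counts were 0. Of the 10, 2 were called higher and 2 lower, the second lower gene being Pmaip1, which lies under the detection floor described below. The shares called over all genes were 8.41% higher and 10.4% lower, or 18.8% in either direction. For 6 of the 10 genes, Pmaip1 among them, all OFBI values lay on the same side of all Naive values. The same held for 46.4% of all genes tested. The median log2 fold change of the 10 was 0.07, and that of all genes tested was -0.20. With Pmaip1 set to the detection floor the median of the 10 was 0.26. That floor lies above the Naive mean of Pmaip1, so it enters the gene as a rise although its OFBI counts were 0. These corneas are mixtures of cell types, so fewer cells of a type and less RNA per cell cannot be told apart. Without Naive replicate 1, 2 or 3 edgeR called 106, 0 and 104 genes in all and none of the 9 genes of the list that it tested, Pmaip1 having missed the filter. Unadjusted p-values below 0.05 then numbered 2611, 2441 and 2615, and included Bbc3, Cdkn1b and Plk2 each time. DESeq2 called 1961, 1525 and 1809 genes in these 3 cases and limma-voom 2089, 1566 and 1900, both with Bbc3, Cdkn1b and Plk2 among them.

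**Figure D1:**
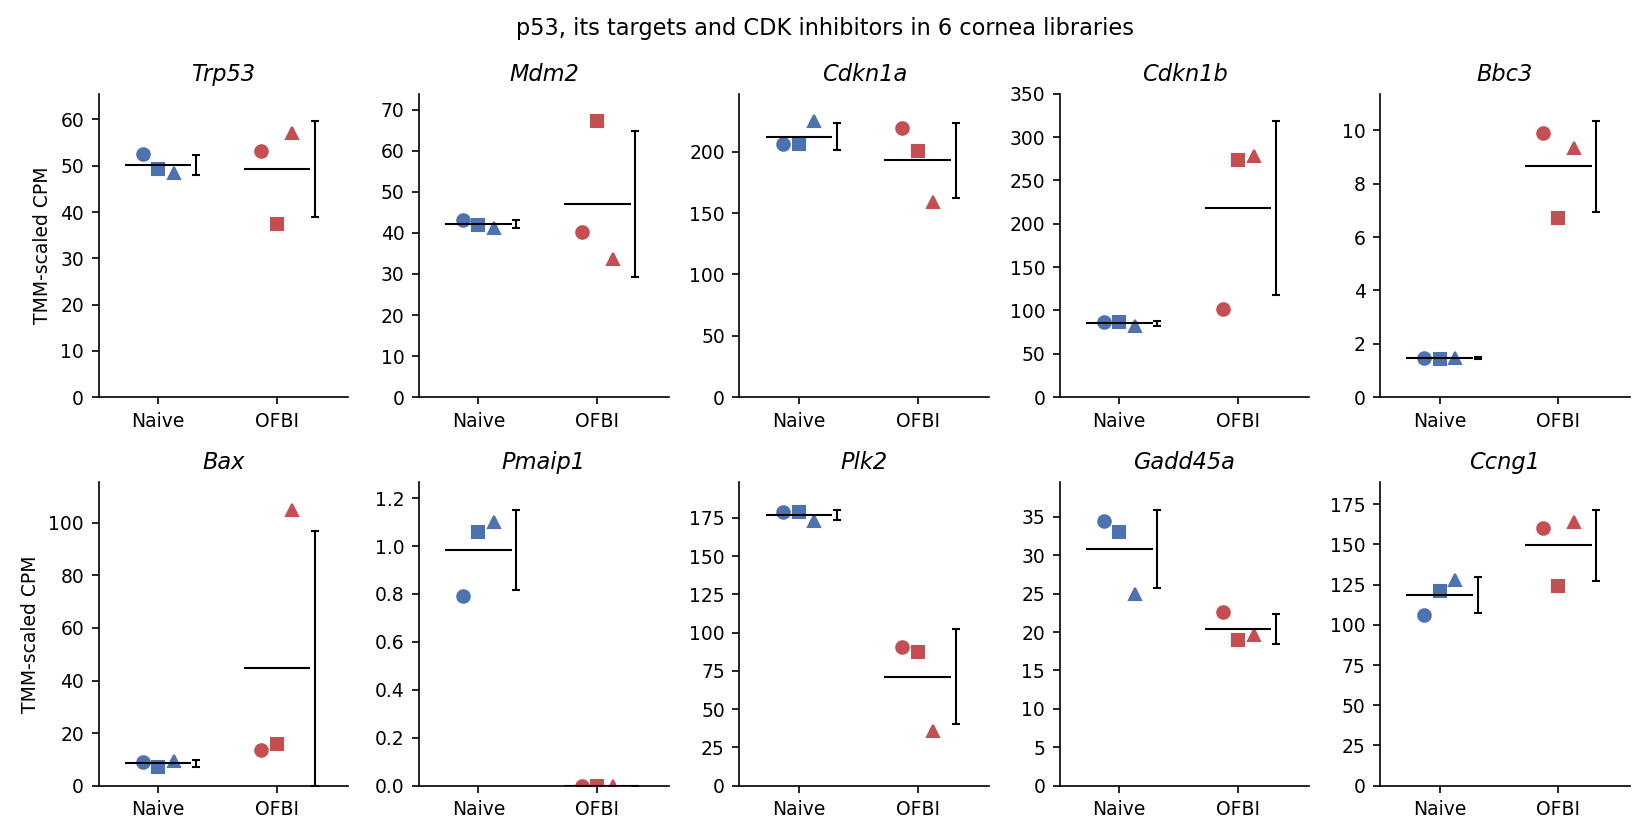
TMM-scaled CPM of the 10 genes (vertical axes, each from 0) in Naive (blue) and OFBI (red) libraries; circles, squares and triangles are replicates 1, 2 and 3, lines are means and bars are ± 1 SD over 3 libraries, cut at 0 where the SD is larger than the mean. Bbc3 lies at 6.72 to 9.89 CPM in OFBI and 1.44 to 1.48 CPM in Naive libraries, and a single OFBI library carries Bax to 105 CPM.

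Trp53 RNA showed no difference that the test could detect. Trp53 (chromosome 11, 69580359 to 69591873, GRCm38) was at 52.6, 49.2 and 48.5 CPM in Naive replicates 1, 2 and 3 and at 53.2, 37.5 and 57.1 CPM in OFBI replicates 1, 2 and 3. The OFBI libraries lay on both sides of the Naive ones. Its log2 fold change was -0.04 (SE 0.21, 95% interval -0.54 to 0.46, edgeR adjusted p = 0.925). Mdm2 (chromosome 10, 117688875 to 117710758), the ubiquitin ligase that limits p53, was at 43.1, 41.9 and 41.2 CPM in Naive and 40.2, 67.2 and 33.7 CPM in OFBI libraries. The OFBI spread, 47.0 ± 17.8 CPM (SD, n = 3), was far wider than the Naive one, 42.1 ± 0.966 CPM (SD, n = 3), and the groups overlapped. Its log2 fold change of 0.18 (95% interval -0.48 to 0.83, edgeR adjusted p = 0.704) became -0.02 when libraries were scaled by size alone, so no direction is given.

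Of the CDK inhibitors, Cdkn1a did not pass the test while Cdkn1b was called higher. Cdkn1a (chromosome 17, 29090976 to 29100727) was at 206, 206 and 225 CPM in Naive and 219, 201 and 159 CPM in OFBI libraries. It is the most abundant of the 10 per length and its groups overlapped, with a log2 fold change of -0.13 (SE 0.16, 95% interval -0.50 to 0.23, edgeR adjusted p = 0.602). Cdkn1b (chromosome 6, 134920401 to 134925513) was at 87.0, 87.2 and 82.1 CPM in Naive and 102, 274 and 278 CPM in OFBI libraries. OFBI replicates 2 and 3 stood well above every Naive library and OFBI replicate 1 only a little above them. The log2 fold change was 1.35 (SE 0.36, 95% interval 0.50 to 2.19, edgeR adjusted p = 0.0426). This call was lost without OFBI replicate 2 or 3 (log2 fold changes of 1.08 and 1.13, edgeR adjusted p = 0.1 and 0.0688) and with limma-voom, size-only scaling, no filter or all libraries thinned (adjusted p = 0.0525 to 0.0623), with the same sign each time.

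Bbc3, which encodes PUMA, a protein that binds and neutralises the survival proteins of the BCL2 family, had the largest rise of the genes with a call. Bbc3 (chromosome 7, 16308393 to 16318205) was at 1.48, 1.44 and 1.48 CPM in Naive and 9.89, 6.72 and 9.35 CPM in OFBI libraries. Its OFBI libraries all lay above all Naive libraries, at 5.86 times the Naive level in the fit (log2 fold change 2.55, SE 0.50, 95% interval 1.37 to 3.73, edgeR adjusted p = 0.0212). The values rest on few counts, 75, 67 and 67 in Naive and 32, 21 and 10 in OFBI libraries. Its longest transcript is 65.2% GC, above 99.6% of the genes averaging 5 CPM or more. With a trend in GC content and length removed the log2 fold change was 1.15 and the call was lost (edgeR adjusted p = 0.164).

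Bax, whose product opens the outer mitochondrial membrane in apoptosis, did not pass the test, and a single library set its mean. Bax (chromosome 7, 45461697 to 45466898) was at 9.01, 7.01 and 9.47 CPM in Naive and 13.6, 15.7 and 105 CPM in OFBI libraries. The groups did not overlap, but the OFBI SD of 52.0 CPM exceeded the mean of 44.7 CPM (n = 3). Its log2 fold change of 2.32 (edgeR adjusted p = 0.0879, SE 0.80) was 0.78 without OFBI replicate 3 (edgeR adjusted p = 0.0776) and 0.88 with the GC and length trend removed, its transcript being 63.5% GC, while DESeq2 called it (log2 fold change 2.41, adjusted p = 0.0169). OFBI replicate 3 is also the library with the highest summed hepatocyte, lymphocyte and heart muscle markers given above, and their part in its Bax level was not tested. The row of a same-strand gene that overlaps Bax, Gm45808, held at most 6 counts in a library.

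Pmaip1, which encodes NOXA, another protein of the PUMA kind, could not be compared at this depth. Its counts were 40, 49 and 50 in Naive libraries and 0 in each OFBI library, or 0.79, 1.06 and 1.1 CPM against 0. A floor of 12 counts over the OFBI group, about 3 sequenced fragments, corresponds to 1.62 CPM, which is above the Naive mean of 0.983 CPM. edgeR called the gene lower (adjusted p = 0.034) but no fold is given, and neither DESeq2 nor limma-voom called it (adjusted p = 0.161 and 0.0622). Floors cover counting error only.

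Among the stress-response genes, Plk2 was called lower, whereas Gadd45a and Ccng1 did not pass. Plk2 (chromosome 13, 110395046 to 110400844), a polo-like kinase induced by growth factors as well as p53, was at 179, 179 and 173 CPM in Naive and 90.9, 87.1 and 35.5 CPM in OFBI libraries. OFBI replicates 1 and 2 were alike and replicate 3 lower still, and none reached the Naive range. The log2 fold change was -1.29 (SE 0.32, 95% interval -2.03 to -0.54, edgeR adjusted p = 0.0348). Without OFBI replicate 3 the gene was still called (edgeR adjusted p = 0.00489), and without OFBI replicate 1 it was not, at -1.51 (edgeR adjusted p = 0.0563). After removal of the GC and length trend its log2 fold change was -1.17 (edgeR adjusted p = 0.0462).

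Gadd45a (chromosome 6, 67035096 to 67037457), which links DNA damage to stress kinases and cell cycle arrest, was at 34.5, 33 and 25 CPM in Naive and 22.6, 18.9 and 19.6 CPM in OFBI libraries. All OFBI values were below all Naive values, but the gap to Naive replicate 3 was small, and the log2 fold change was -0.59 (edgeR adjusted p = 0.151, SE 0.25, unadjusted p = 0.0495). Ccng1 (chromosome 11, 40748552 to 40755311), a cyclin that acts in the p53 feedback loop, was at 106, 121 and 128 CPM in Naive and 160.4, 124 and 164 CPM in OFBI libraries. OFBI replicate 2 fell inside the Naive range, and the log2 fold change of 0.33 (95% interval -0.06 to 0.73) had an edgeR adjusted p of 0.216. After removal of the GC and length trend it was 0.89 (edgeR adjusted p = 0.0532), its transcript being 40.8% GC.

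**Figure D2:**
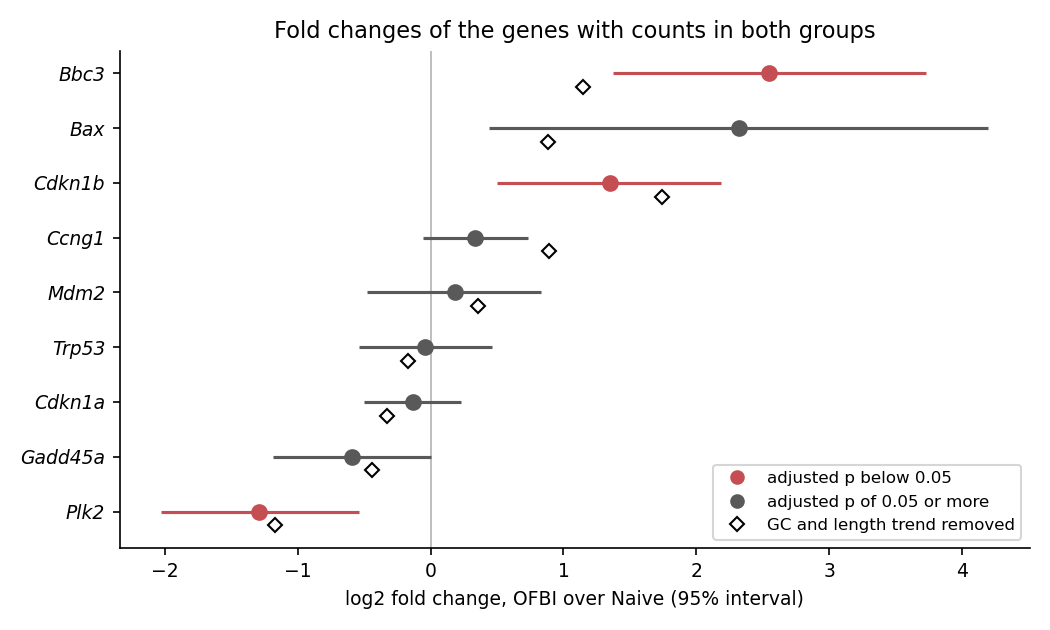
Log2 fold changes of OFBI over Naive (horizontal axis) with 95% intervals from edgeR for the 9 genes with counts in both groups, red where the adjusted p was below 0.05; open diamonds are the values with a GC and length trend removed. Bbc3 moves from 2.55 to 1.15 and Bax from 2.32 to 0.88 with the trend removed, while Cdkn1b and Plk2 keep values of 1.74 and -1.17.

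The order of the levels per kilobase of exon changed with these differences. In Naive corneas it ran from Cdkn1a at 59.8 ± 3.12 CPM per kb (SD, n = 3) through Plk2 at 39.5 ± 0.813, Ccng1 at 33.7 ± 3.22, Cdkn1b at 18.8 ± 0.636, Gadd45a at 17.5 ± 2.91, Trp53 at 12.4 ± 0.549, Mdm2 at 8.28 ± 0.19 and Bax at 5.39 ± 0.831 to Bbc3 at 0.691 ± 0.00938 and Pmaip1 at 0.36 ± 0.0616. Only Cdkn1b and Gadd45a overlapped among neighbours in that order. In OFBI corneas it ran from Cdkn1a at 54.3 ± 8.66 CPM per kb (SD, n = 3) through Cdkn1b at 47.9 ± 22.0, Ccng1 at 42.5 ± 6.29, Bax at 28.4 ± 33.0, Plk2 at 15.8 ± 6.88, Trp53 at 12.2 ± 2.57, Gadd45a at 11.5 ± 1.1 and Mdm2 at 9.25 ± 3.5. Each of these overlapped its next neighbour over the 3 libraries. Bbc3 at 4.08 ± 0.798 remained the lowest of the genes with counts.

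Ratios of counts within a library do not depend on how libraries are scaled. They are descriptions of pairs chosen after the values were seen, without a test. For each count of Trp53 there were 0.0281, 0.0293 and 0.0305 counts of Bbc3 in Naive libraries and 0.186, 0.179 and 0.164 in OFBI libraries, with a wide gap between the groups. Such ratios still carry the GC trend, and the longest transcripts of Bbc3 and Trp53 are 65.2% and 53.3% GC. With that trend removed the log2 fold change of Bbc3 fell to 1.15 without a call, as given above. The ratio of Cdkn1b to Cdkn1a was 0.422, 0.423 and 0.364 in Naive and 0.468, 1.36 and 1.75 in OFBI libraries. OFBI replicate 1 was again close to the Naive range. Plk2 exceeded Ccng1 in each Naive library (1.7, 1.48 and 1.35) and was below it in each OFBI library (0.566, 0.703 and 0.217). Mdm2 to Trp53, the feedback pair, was 0.819, 0.851 and 0.85 in Naive and 0.756, 1.79 and 0.59 in OFBI libraries, so its OFBI values fell on both sides. Bax to Bcl2, a death gene against a survival gene, was 0.0878, 0.0816 and 0.114 in Naive and 0.124, 0.107 and 0.783 in OFBI libraries, again with OFBI replicate 3 apart.

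**Figure D3:**
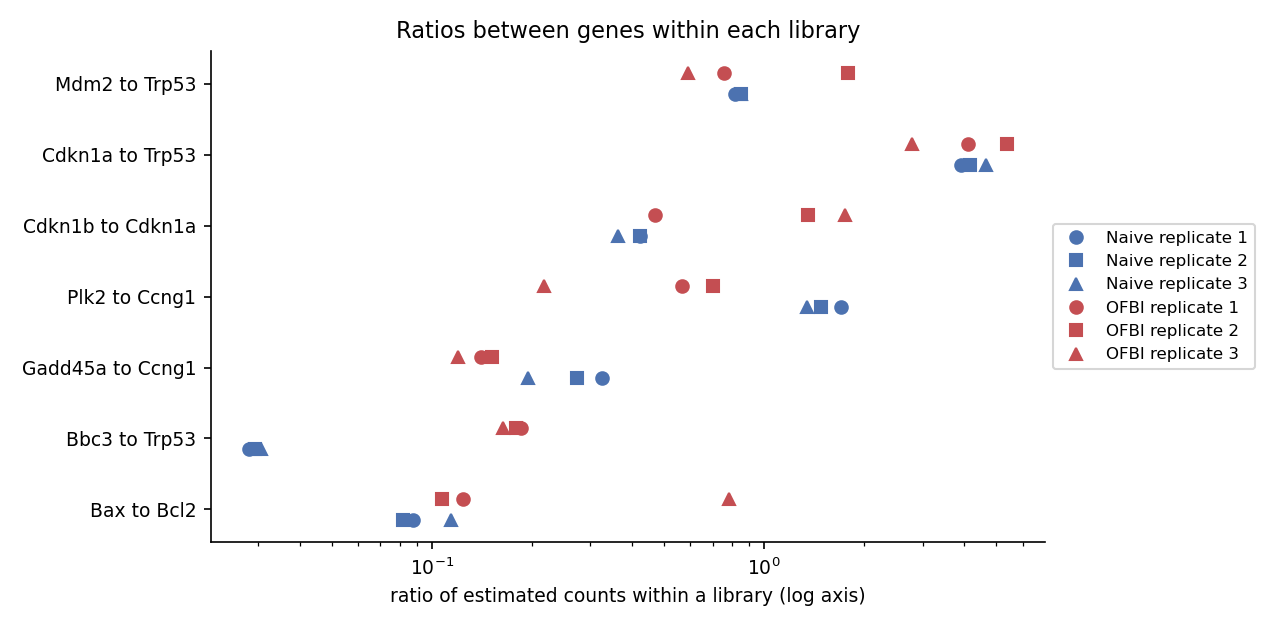
Ratios of estimated counts between named genes within each library (horizontal log axis), Naive in blue and OFBI in red, with 1 symbol for each library. For Bbc3 to Trp53 the 3 OFBI libraries lie at 0.164 to 0.186 and the 3 Naive libraries at 0.0281 to 0.0305. The GC trend is not removed from these ratios.

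Other genes of the same pathways, in 7 lists of 87 genes, gave 10 higher and 5 lower calls among 82 tested, or 18.3%, close to the 18.8% of all genes. Among 15 regulators and relatives of p53, 1 was called higher and 3 lower, with a median log2 fold change of -0.36. Rchy1, which encodes the p53 ubiquitin ligase PIRH2, was at 25.6, 21 and 20.5 CPM in Naive and 69.2, 92.5 and 149.6 CPM in OFBI libraries, a log2 fold change of 2.20 (edgeR adjusted p = 0.01, SE 0.31), and 2.44 with the GC and length trend removed. Trp63, the p53 relative that maintains basal epithelial cells, was at 422, 346 and 316 CPM in Naive and 193, 142 and 179 CPM in OFBI libraries (log2 fold change -1.08, SE 0.18, edgeR adjusted p = 0.0147). The other lower genes were the DNA damage kinases Atm and Atr, named after their values were seen, with log2 fold changes of -0.99 and -1.25, and of -0.78 and -0.98 with the trend removed, where neither passed (edgeR adjusted p = 0.0722 and 0.0585). Crebbp, a p53 acetyltransferase with the highest mean CPM of that list over the 6 libraries together (Trp63 was higher in Naive libraries), had a log2 fold change of 0.55 and was not called (edgeR adjusted p = 0.109).

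Among 18 tested p53 targets of arrest, repair and metabolism, 3 were called higher and 2 lower, with a median log2 fold change of -0.19. Sfn, the epithelial 14-3-3 sigma gene whose product holds mitotic kinases in the cytoplasm, was the most abundant of them at 971, 1048 and 1052 CPM in Naive and 3178, 2799.6 and 3741 CPM in OFBI libraries. Its log2 fold change was 1.66 (edgeR adjusted p = 0.0053, SE 0.14) and 0.96 after removal of the GC and length trend (edgeR adjusted p = 0.0182). The summed epithelial markers were higher in the same libraries, as given above, and their part in the Sfn level was not tested. Polh, a polymerase that copies past ultraviolet damage, fell from 24.1, 22.1 and 24.2 CPM to 4.64, 1.6 and 0 CPM (log2 fold change -3.25, SE 0.68, edgeR adjusted p = 0.0242). Its OFBI counts were 15, 5 and 0. Without OFBI replicate 1, the highest OFBI library, Polh was still called lower (edgeR adjusted p = 0.0247). The counts left were then fewer than the 12 of the detection floor, so no fold is given for that fit. Named after their values were seen, Cd82 and Ddit4 were the other higher genes and Epha2 the other lower gene, with log2 fold changes of 0.90, 0.95 and -0.54, and Epha2 alone passed with the trend removed (edgeR adjusted p = 0.03), where Cd82 and Ddit4 were at 0.64 and 0.50. Of 10 tested p53 targets of cell death edgeR called 0, with a median log2 fold change of -0.54, while 3 passed 0.05 before adjustment. DESeq2 called those 3 lower, the apoptosome gene Apaf1, Ei24 and Trp53inp1, and limma-voom called 0. Trp53inp1, a stress-induced cofactor of p53, had a log2 fold change of -0.77 and Ei24 one of -0.51 (edgeR adjusted p = 0.0882 and 0.11). The most abundant of them, Perp, a desmosome-associated p53 target, was at 1609 ± 198 CPM in Naive and 1655 ± 229 CPM in OFBI corneas (SD, n = 3).

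In the BCL2 family beyond Bax, Bbc3 and Pmaip1, 3 of 11 tested genes were called higher, with a median log2 fold change of 0.52. Bcl2l2, which encodes the survival protein BCL-W, was at 30.7, 34.0 and 31.5 CPM in Naive and 80.4, 116 and 167 CPM in OFBI libraries (log2 fold change 1.90, SE 0.27, edgeR adjusted p = 0.0107). An overlapping same-strand row, Gm20521, held 0, 106 and 148 counts in Naive and 0 in OFBI libraries, so counts could be split between them. Bcl2l1, the BCL-X gene, had a log2 fold change of 0.87 (edgeR adjusted p = 0.0191, SE 0.16) and lost the call with the trend removed (edgeR adjusted p = 0.0732). The third, Bad, a death-promoting member named after its values were seen, had a log2 fold change of 0.91, and 0.52 without a call once the trend was removed (edgeR adjusted p = 0.305), which left 1 call in the list. Mcl1, whose product is a short-lived survival protein, was at 1023 CPM in OFBI replicate 1 and at 225 and 249 CPM in replicates 2 and 3, against 292 to 423 CPM in Naive libraries, and was not called.

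The third gene of the Cdkn1 family, Cdkn1c, which encodes p57, was the single call among 8 other CDK inhibitors and pocket proteins. The median log2 fold change of these 8 genes was -0.03. Cdkn1c is described first. It was at 13.2, 16.9 and 17.1 CPM in Naive and 39.9, 57.6 and 118 CPM in OFBI libraries, a log2 fold change of 2.16 (edgeR adjusted p = 0.0198, SE 0.41), and 1.45 after removal of the GC and length trend (edgeR adjusted p = 0.0359). Cdkn2c, of the INK4 inhibitors, had a log2 fold change of 0.72 (edgeR adjusted p = 0.0871). Rbl2, a pocket protein gene with the highest mean CPM of that list over the 6 libraries together, though not within either group, had a log2 fold change of 0.07 (edgeR adjusted p = 0.877). Among 13 genes of G1 cyclins, kinases and E2F factors, which these inhibitors act on, 2 were called higher, with a median log2 fold change of 0.30. Ccnd1, the cyclin D1 gene, was at 845, 796 and 787 CPM in Naive and 1256, 1529.6 and 1258 CPM in OFBI libraries (log2 fold change 0.74, SE 0.13, edgeR adjusted p = 0.0164). Cdk6, a kinase partner of cyclin D, had a log2 fold change of 0.69 (edgeR adjusted p = 0.0222, SE 0.14). Both were called with the trend removed, at 0.74 each. Of the 7 paralogs of Gadd45a, Plk2 and Ccng1 edgeR called 0, with 1 unadjusted p below 0.05, DESeq2 called 2 and limma-voom 1. Plk5 held 8, 0 and 0 counts in OFBI libraries, under the detection floor of 12 counts over the group, so no fold is given. Its OFBI values lay below all Naive values (edgeR adjusted p = 0.0943). Plk4 had a log2 fold change of 0.97 (edgeR adjusted p = 0.171). DESeq2 called both Plk5 and Plk4, limma-voom Plk5 alone. Ccng2 was at 36.5, 64.7 and 267 CPM in OFBI libraries and 70.9 to 78.1 CPM in Naive ones, with replicate 3 apart from the others, as for Bax. Without a Naive library the calls of Rchy1, Trp63, Polh, Bcl2l2, Bcl2l1, Cdkn1c, Ccnd1 and Cdk6 were lost each time, and that of Sfn without Naive replicate 2 (edgeR adjusted p = 0.0518 to 0.12). Of the genes named, Cdkn1a, Gadd45a, Rchy1, Trp63, Atr, Cd82, Apaf1, Ei24, Bcl2, Bad, Cdkn1c, Rbl2, Ccnd1 and Cdk6 overlap an annotated gene on the other strand. So do the named markers Krt12, Krt5, Pax6, Myl2 and Actc1. Without a stated strand setting, reads of such pairs cannot be told apart.

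**Figure D4:**
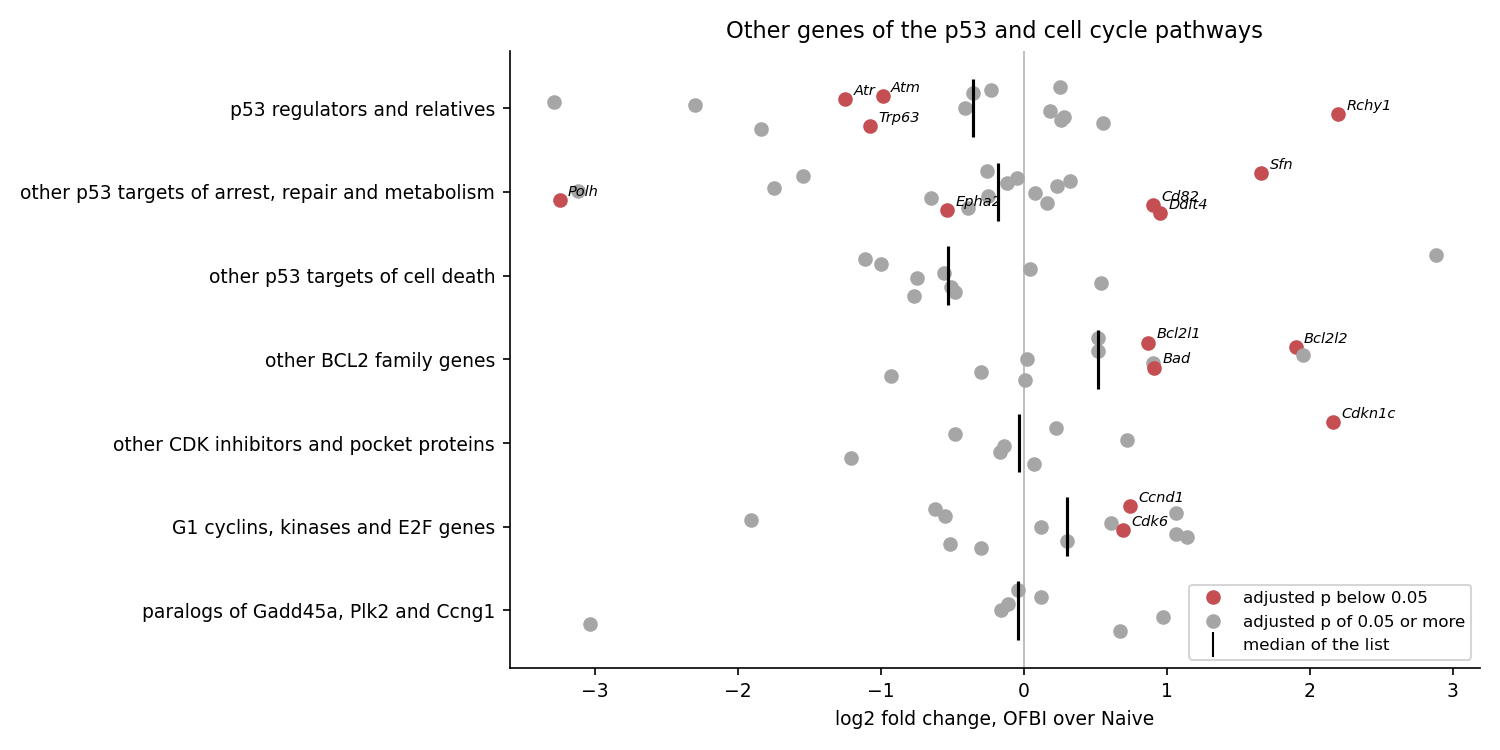
Log2 fold changes of OFBI over Naive (horizontal axis) for the 82 tested genes of 7 other lists, 1 point for each gene, red and named where the edgeR adjusted p was below 0.05, with a black line at the median of each list. The calls fall on both sides of 0 for regulators and for targets of arrest and repair. Those above 0 in the BCL2 family, CDK inhibitors and G1 genes are only 3 of 11, 1 of 8 and 2 of 13 genes. Of all genes tested, 18.8% were called in either direction. With the GC and length trend removed the BCL2 family keeps 1 call.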

How the data were processed

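RNA of 6 libraries was tabulated by the authors as estimated counts per gene, deposited as whole numbers not scaled for depth, a unit read from the values. Per the submitters' processing notes, the build was GRCm38 and the tools included HISAT2, StringTie, FastQC and DESeq2, with no version or role. Annotation, strand setting and handling of multi-mapped reads are not given in sources used here. Between 1 and 40, 39.4% to 50.5% of the values were whole multiples of 4, so 1 fragment may stand for about 4 counts. Rows sharing a symbol were summed, 64 rows on 31 symbols. Genes were filtered with filterByExpr and tested with edgeR 4.0.16 (R 4.3.3) with TMM scaling, group as the only term and two-sided tests. The SE is the log2 fold change divided by the square root of F, and intervals use edgeR's degrees of freedom. Exon length, GC content of the longest transcript and gene coordinates came from GENCODE release 21 for mouse, which 98.95% of symbols matched. The members and gene lists were chosen with earlier results of these data known. The rule named all 10 members and, of each other list, the 2 tested genes with the smallest p and the one with the highest mean CPM over all libraries. Alternatives were DESeq2 1.42.0, limma-voom (limma 3.58.1), other scalings and filters, a threshold of 0.01, counts divided by 4, thinned libraries, a GC and length trend (fitted on genes averaging 5 CPM or more, a form settled after a first version was seen) removed, a replicate block and leaving out each library. DESeq2 and limma-voom with libraries left out were added after the data were seen. The test was checked on simulated data. No 2 libraries of a group agreed within sampling noise (mean chi-square per gene of 16.7 to 58.8). All libraries carry batch number 4. The p-values measure the spread between these pools.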

Additional observations from a re-analysis of the deposited data

How the results depend on the processing

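The count of genes called higher, 1173, was 1905 with DESeq2, 773 with a GC and length trend removed, 540 with a replicate block and 191 at a threshold of 0.01, and 0 to 1611 without single libraries. The count called lower, 1446, was 910 with no filter, 580 with the Naive libraries thinned, 448 with all libraries thinned, 253 with a replicate block and 31 at 0.01, and 0 to 2065 without single libraries. With libraries scaled by size alone 29.8% of the calls were higher instead of 44.8%, while the median over all genes moved to -0.40 from -0.20 (log2).

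Of the 10 genes, 2 were called higher. That count was 1 with limma-voom, size-only scaling, no filter or the GC and length trend removed, 0 with all libraries thinned, a replicate block or a threshold of 0.01, and 0 to 2 without single libraries. The count of 2 called lower was 1 with DESeq2, limma-voom, no filter, the filter of 1 CPM in 3 libraries, counts divided by 4, either thinning or a replicate block, 0 at 0.01 and 0 to 2 without single libraries. Pmaip1 no longer met the filter in the 1 CPM, divided and thinned fits, and Bbc3 not with all libraries thinned. The fits without a Naive library tested 12094 to 12113 genes instead of 13941. For these changes the cause was not tested. Same-numbered libraries did not deviate together (correlations of -0.003, -0.018 and 0.008), so there was no sign that the replicate numbers pair them. Noise in the shallow OFBI libraries could hide a shared deviation, so this check cannot exclude pairing.

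The alternatives were run for the 10 genes and for the genes that the naming rule took from the other lists. The log2 fold changes that changed sign there belonged to genes that had not been called: Trp53 after thinning of the Naive or of all libraries (0.06 and 0.23) and without single libraries (-0.16 to 0.09), Mdm2 with size-only scaling (-0.02) and without single libraries (-0.22 to 0.34), Perp (-0.16 with size-only scaling, -0.12 to 0.15 without single libraries), Rbl2 (-0.03 with limma-voom, -0.14 with size-only scaling, -0.20 to 0.28 without single libraries), Mcl1 (-0.60 to 0.85 without single libraries) and Ccng2 (-0.34 with limma-voom, -0.57 to 1.07 without single libraries). Atm, Atr, Cd82, Ddit4, Epha2, Bad and Apaf1 were examined only with the trend removed and, as counts of calls, with DESeq2 and limma-voom. Depth left Pmaip1 and Plk5 under the detection floor in OFBI libraries.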
